A study of Mus musculus with 20 samples.

Results

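Serpins are the serine protease inhibitors of one structural family, and the genes described here are those whose probe sets on the array carry a single gene symbol that starts with Serpin. The rule found 40 serpin genes among the 18194 genes with a single symbol, and each gene was represented by its brightest probe set. They fall into clade a (14 genes), clade b (18), clade c (1), clade d (1), clade f (2), clade g (1), clade h (1) and clade i (2). Signal was low for many members: in 24 of the 40 all 4 group means lay below 7.44, the lower quartile of the means of all genes on the log2 scale, and these are called dim below. The other 16 passed that mark in at least 1 group. For 7 serpins the probe set is of a kind that can pick up near-identical transcripts, and 12 serpins had several probe sets.

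Expression was measured on 20 arrays, with motor cortex and sensory cortex taken from each of 10 female C57Bl6 mice. The motor arrays came from 6 mice with experimental autoimmune encephalomyelitis (EAE) and 4 healthy mice, and the sensory arrays came from the same mice. EAE is a model of multiple sclerosis in which immunity raised against a myelin protein leads to inflammation and paralysis. EAE and healthy mice share an age of 8 to 12 weeks, which for the EAE mice is the age when injected. The EAE mice were immunised with a peptide of myelin oligodendrocyte glycoprotein, 100 µg given into the flanks with a further 50 µg near the tail. In addition, the EAE mice received 400 ng of pertussis toxin on days 0 and 3. The EAE mice were taken on days 18 to 21 by their label, while the protocol gives day 21 for tissue collection. Their average grades ran between 2.5 and 3.5. The healthy mice were housed in the same cages and are described with no injection, so the effect of immunisation and that of disease cannot be told apart. The tissue is a dissection enriched for each region and holds all of its cell types. Each of 2 cohorts held 3 EAE and 2 healthy mice. A number marks a mouse, so that EAE mouse 2 gave 1 motor and 1 sensory array.

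Serpins act as suicide substrates: the target protease cleaves an exposed loop, the serpin snaps into another shape, and the enzyme is trapped in a covalent complex. The clade letters broadly follow ancestry. Clade a members are mostly secreted proteins, many of them made by the liver. Clade b members mostly stay inside cells, where several guard against leukocyte granule proteases. The smaller clades hold plasma inhibitors of clotting, fibrinolysis and complement, a neuronal inhibitor, and members such as the collagen chaperone Serpinh1 that inhibit no protease. In the inflamed brain the family is best known through Serpina3n, a widely used marker of reactive astrocytes.

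Few serpins differed between EAE and healthy cortex, and those that did moved in opposite directions. Serpinb1a was lower in EAE mice in both regions, at 0.472 of the healthy level in motor and 0.452 in sensory cortex, and Serpina3n was higher in sensory cortex. When each mouse's arrays of both regions were averaged, Serpina3n, Serping1 and Serpina12 were higher and Serpinb1a lower. A gene was called where limma's Benjamini-Hochberg adjusted p, taken over all 18194 genes, was under 0.05. In motor cortex 1 of the 40 serpins was called, against 2.25% of all genes, with 0 higher (0.517% of all genes) and 1 lower (1.74%). In sensory cortex 2 of 40 were called, against 2.41% of all genes, with 1 higher (0.901%) and 1 lower (1.51%). For the mean of both regions 4 of 40 were called, against 7.87%, with 3 higher (2.23%) and 1 lower (5.64%). The shares called in either direction lie near or not far above those of all genes. The median log2 difference of the 40 serpins was 0.06 in motor and 0.09 in sensory cortex, beside -0.01 and 0.00 for all genes. In motor cortex 31 of the 40 differences were positive, against 8525 of all 18194 genes, and 26 of 40 when the arrays were quantile normalised again. Before that step the positive ones were 21 of the 24 dim serpins and 10 of the other 16.

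**Figure D1:**
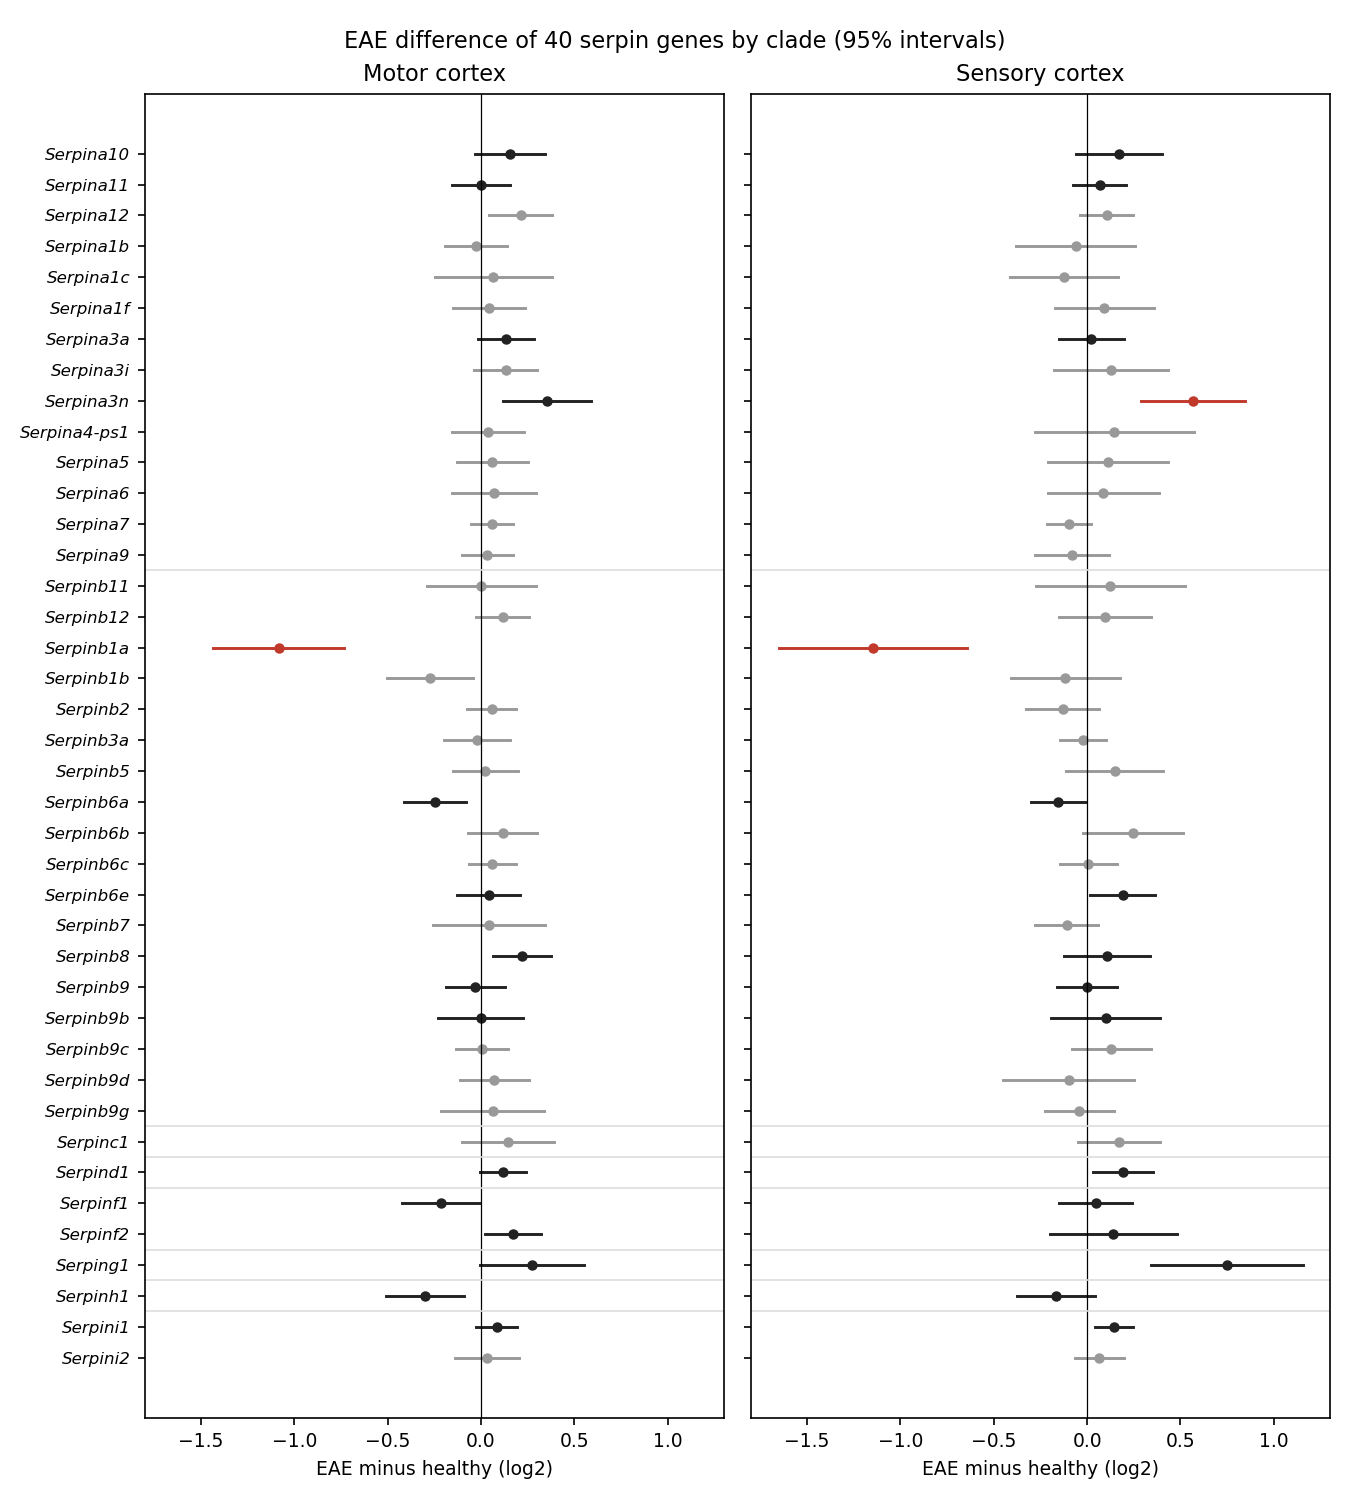
Log2 difference, EAE minus healthy, of each of the 40 serpins in motor cortex (left) and sensory cortex (right), grouped by clade, where points are estimates from limma, bars are 95% intervals, red marks called genes, grey marks dim genes and black marks the others. Serpinb1a stands alone at -1.08 in motor and -1.15 in sensory cortex, and Serpina3n at 0.57 in sensory cortex is the only other red point.

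Among the clade b serpins, Serpinb1a fell in both regions. Its human counterpart inhibits neutrophil elastase, cathepsin G and proteinase 3, the proteases of neutrophil granules. In motor cortex Serpinb1a read 6.45 at the lowest, 6.99 at the median and 7.17 at the highest of the 6 EAE arrays, against 8.17, 8.45, 7.72 and 7.70 in healthy mice 1 to 4. No EAE array reached the lowest healthy array. The difference was -1.08 ± 0.16 (log2, SE), a fold of 0.472, with a limma adjusted p of 0.00576. In sensory cortex the 6 EAE arrays ran between 6.41 and 7.68 with a median of 7.06, and the 4 healthy arrays read 8.45, 7.95, 8.06 and 8.24. The groups again did not overlap, and the lowest sensory values were those of EAE mice 3 (6.41) and 2 (6.57). The difference was -1.15 ± 0.23, a fold of 0.452, with an adjusted p of 0.0336. The EAE means of 6.93 ± 0.25 in motor and 7.03 ± 0.48 in sensory cortex lay below the 7.44 mark and the healthy means of 8.01 ± 0.36 and 8.18 ± 0.22 above it (SD), so both folds rest on a low signal in EAE mice.

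Averaged over both regions, Serpinb1a was 6.98 ± 0.34 in EAE mice and 8.09 ± 0.20 in healthy mice (SD, n = 6 and 4 mice), a difference of -1.12 ± 0.16 with an adjusted p of 0.00418. The motor call held when any single mouse was left out (-1.19 to -0.93, adjusted p 0.00601 to 0.0299), and so did the call for both regions (adjusted p up to 0.0193). The call for both regions was lost without the second day of array processing, which leaves 2 healthy mice (-1.07, adjusted p 0.0808), and within cohort 1 (-1.42, adjusted p 0.246). The sensory call held for 3 of 10 such omissions, with an adjusted p of up to 0.118, although the difference stayed between -1.31 and -1.01. Within cohort 2 the motor difference was -0.64 (adjusted p 0.0535). A second, dimmer Serpinb1a probe set, of the kind that can share transcripts, gave -0.26 ± 0.18 in motor cortex and -0.03 ± 0.11 in sensory cortex (unadjusted p 0.17 and 0.797), so the fall rests on the brighter probe set. Averaging both probe sets moved the difference in both regions together to -0.63.

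**Figure D2:**
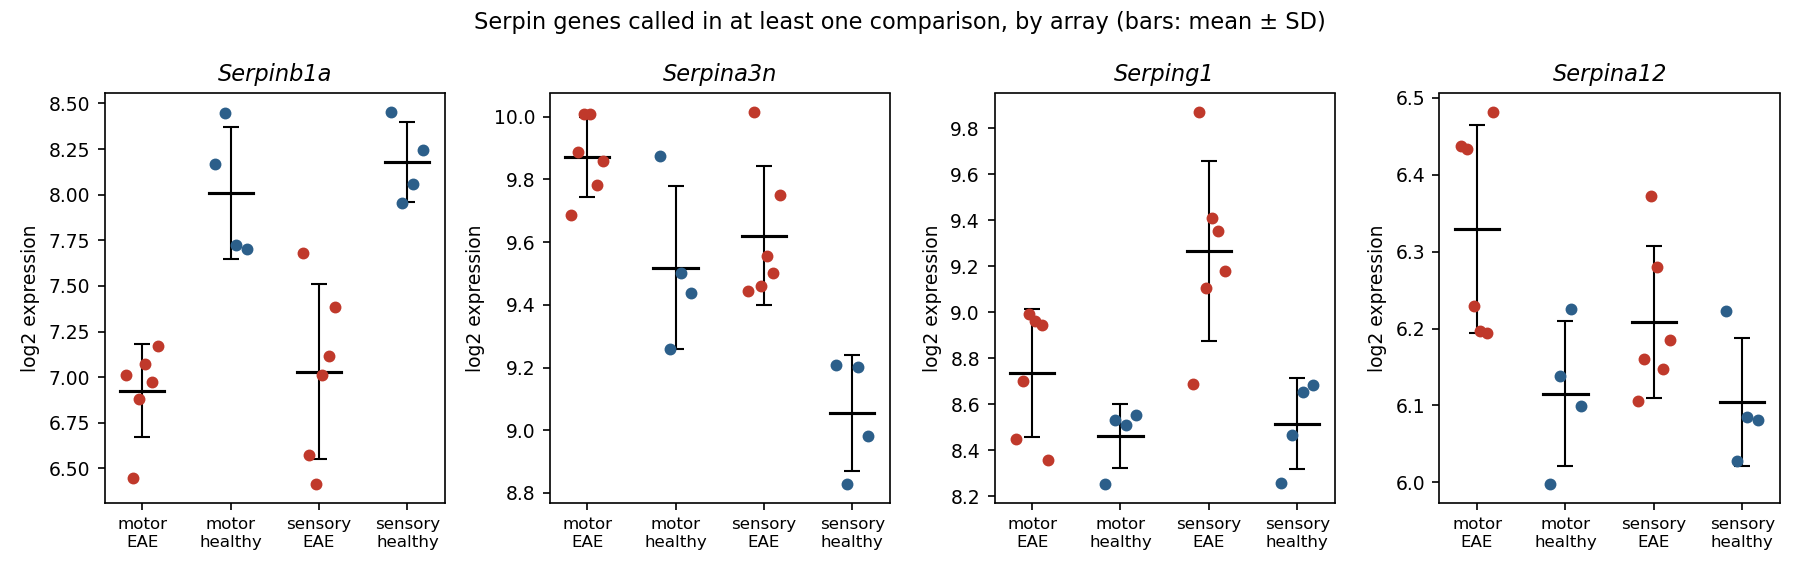
Log2 expression of Serpinb1a, Serpina3n, Serping1 and Serpina12 in every array, with EAE (red) left of healthy (blue) in motor and then sensory cortex; bars are the mean ± SD of 6 EAE or 4 healthy arrays, and each panel has its own axis. The red and blue points of Serpinb1a lie apart in both regions, those of Serpina3n in sensory cortex alone, and those of Serpina12 overlap in both.

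The other clade b members gave no call. Serpinb6a, whose human counterpart inhibits cathepsin G, read between 10.50 and 10.88 in motor EAE arrays with a median of 10.74, against 11.03, 10.99, 11.07 and 10.87 in healthy mice. In sensory cortex it read between 10.53 and 10.83 in EAE arrays, against 10.87, 10.79, 10.79 and 10.93 in healthy mice. Only a narrow band was shared by the groups in each region. The differences were -0.25 ± 0.08 in motor and -0.16 ± 0.07 in sensory cortex (adjusted p 0.133 and 0.236). For both regions the difference was -0.20 ± 0.06, where the adjusted p of 0.0509 just missed the threshold. That difference was called in 7 of 19 alternatives, 3 of them omissions of a single mouse.

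Serpinb9, the inhibitor of granzyme B that shields cytotoxic cells from their own enzyme, stood at 9.69 ± 0.13 in EAE and 9.72 ± 0.04 in healthy motor cortex (SD), and at 9.94 ± 0.13 and 9.94 ± 0.06 in sensory cortex. Its differences were -0.03 ± 0.07 and -0.00 ± 0.07, with 95% intervals of -0.19 to 0.13 and -0.16 to 0.16. Serpinb2, an inhibitor of the plasminogen activator urokinase, was dim, with differences of 0.06 ± 0.06 in motor cortex and -0.13 ± 0.09 in sensory cortex. The remaining 14 clade b genes had differences within -0.27 and 0.22 in motor cortex and within -0.12 and 0.25 in sensory cortex, and none was called. The median of the 18 clade b genes was 0.03 in motor and 0.00 in sensory cortex.

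Clade a held the rise of Serpina3n, a secreted inhibitor that in mice can act on granzyme B. In sensory cortex Serpina3n read between 9.44 and 10.02 with a median of 9.53 in the 6 EAE arrays, against 9.21, 8.83, 9.20 and 8.98 in healthy mice 1 to 4. The groups did not overlap, and the highest value was that of EAE mouse 2. The difference was 0.57 ± 0.13 (log2, SE), a fold of 1.48, with a limma adjusted p of 0.0483. In motor cortex the EAE arrays ran between 9.69 and 10.01 with a median of 9.87, and the healthy arrays read 9.88, 9.26, 9.50 and 9.44. There the groups overlapped through healthy mouse 1 alone, and the difference of 0.35 ± 0.11 was not called (adjusted p 0.121). Without that mouse it was 0.49 with an adjusted p of 0.0302.

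Over both regions Serpina3n averaged 9.75 ± 0.13 in EAE mice and 9.29 ± 0.21 in healthy mice (SD, n = 6 and 4), a rise of 0.46 ± 0.10 with an adjusted p of 0.0198. The sensory call was close to the threshold: it held for 3 of 10 omissions of a single mouse, with adjusted p between 0.0308 and 0.171 and differences between 0.48 and 0.63. The call for both regions held for 7 of 10, and was lost without healthy mouse 2 (0.36, adjusted p 0.0537), 3 (0.49, adjusted p 0.0504) or 4 (0.43, adjusted p 0.0773). Of all 19 alternatives 6 lost this call, among them the fit without the second processing day and the fit within cohort 1. No EAE array of either region fell below the healthy mean of its region.

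The promoter of Serpina3n is shown because this gene carries the clearest rise of the family in sensory cortex. The window runs 250 bases before to 50 bases after the RefSeq start, on build GRCm38.p6 at chr12:104406458-104406757, plus strand, and capitals mark a match to AGAACA, the core letters of a glucocorticoid receptor site, 183 bases before the start.
Serpina3n: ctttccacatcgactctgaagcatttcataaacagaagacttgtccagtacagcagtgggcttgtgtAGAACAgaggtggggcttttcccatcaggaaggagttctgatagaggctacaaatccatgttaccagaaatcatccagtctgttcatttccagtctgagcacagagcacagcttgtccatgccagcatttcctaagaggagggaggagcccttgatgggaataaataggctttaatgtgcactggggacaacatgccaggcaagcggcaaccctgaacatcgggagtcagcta
On both strands AGAACA occurs in 19% of the 32851 windows of this length in the RefSeq table and in 13 of the 40 windows of serpin members (34 genes). The STAT site TTCNNNGAA occurs in 8.3% of all windows and 8 serpin windows, and the interferon-stimulated response element in 3.44% and 3. Neither of these is in the Serpina3n window. A match describes letters only.

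Serpina12, known as vaspin and described as a product of fat tissue, was called higher for both regions together, but at a low signal and by a small amount. In motor cortex it read between 6.19 and 6.48 with a median of 6.33 in EAE arrays, against 6.00, 6.14, 6.23 and 6.10 in healthy mice. In sensory cortex it read between 6.11 and 6.37 in EAE arrays, against 6.22, 6.03, 6.09 and 6.08 in healthy mice. The groups overlapped in both regions. The mouse averages were 6.27 ± 0.06 in EAE and 6.11 ± 0.03 in healthy mice (SD), a difference of 0.16 ± 0.04 with a limma adjusted p of 0.0424. The call was lost in 16 of 18 alternatives, including 9 of the 10 omissions of 1 mouse, and its other probe set gave 0.16 ± 0.10 (unadjusted p 0.128).

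Serpina1b, one of the mouse copies of antitrypsin, the liver's inhibitor of neutrophil elastase, was dim, with differences of -0.03 ± 0.08 in motor cortex and -0.06 ± 0.14 in sensory cortex. The remaining clade a genes lay within 0.00 and 0.16 in motor and within -0.12 and 0.17 in sensory cortex, and none was called. The 14 clade a genes had a median of 0.06 in motor and 0.09 in sensory cortex.

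Clade g has a single member, Serping1, the C1 inhibitor that blocks the first proteases of the classical complement pathway and the contact system. In sensory cortex its 6 EAE arrays read 8.69, 9.87, 9.10, 9.41, 9.35 and 9.18 for mice 1 to 6, against 8.26, 8.47, 8.65 and 8.69 in healthy mice 1 to 4. The groups met without overlapping: EAE mouse 1 and healthy mouse 4 were level to 2 decimals, and EAE mouse 2 was the highest. In motor cortex the EAE arrays ran between 8.36 and 8.99 with a median of 8.82, and the healthy arrays read 8.25, 8.53, 8.51 and 8.55. There EAE mice 1 and 6 lay within the healthy range. The differences were 0.75 ± 0.18 in sensory cortex (adjusted p 0.0636) and 0.27 ± 0.13 in motor cortex (adjusted p 0.328), neither past the threshold.

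Over both regions Serping1 averaged 9.00 ± 0.28 in EAE mice and 8.49 ± 0.16 in healthy mice (SD, n = 6 and 4), a rise of 0.51 ± 0.13, or a fold of 1.43, with an adjusted p of 0.038. This call held for 2 of 10 omissions of a mouse, with adjusted p up to 0.105. Without EAE mouse 2, the most extreme of them in sensory cortex, the difference was 0.43 (adjusted p 0.0534) for both regions. In sensory cortex alone the same omission gave 0.59 with an adjusted p of 0.0266, and omitting EAE mouse 1 gave 0.86 with an adjusted p of 0.0178. Only these 2 of 10 omissions gave a sensory call, and the adjusted p ran up to 0.19 in the rest.

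The inhibitors of clotting and fibrinolysis gave no call. Serpinc1, antithrombin, was dim, with differences of 0.14 ± 0.11 in motor cortex and 0.17 ± 0.10 in sensory cortex. Serpind1, heparin cofactor II, which inhibits thrombin, read between 9.00 and 9.31 with a median of 9.26 in sensory EAE arrays, against 8.92, 9.12, 9.01 and 9.01 in healthy mice. Its differences were 0.12 ± 0.06 in motor, 0.19 ± 0.07 in sensory cortex and 0.15 ± 0.04 for both regions, with adjusted p of 0.331, 0.193 and 0.0588. Serpinf2, antiplasmin, the main inhibitor of plasmin, had differences of 0.17 ± 0.07 in motor cortex and 0.14 ± 0.15 in sensory cortex (adjusted p 0.236 and 0.64). One array widened the sensory spread of Serpinf2: EAE mouse 3 read 9.07, against a median of 8.44 for the 6 EAE arrays.

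Serpini1, neuroserpin, is made by neurons and inhibits tissue plasminogen activator. In sensory cortex it read between 13.55 and 13.64 with a median of 13.57 in EAE arrays, against 13.52, 13.37, 13.42 and 13.42 in healthy mice. The groups did not overlap there, yet the difference of 0.15 ± 0.05 did not pass the threshold (adjusted p 0.135). In motor cortex it read between 13.55 and 13.67 in EAE arrays, against 13.56, 13.49, 13.53 and 13.52 in healthy mice, a difference of 0.08 ± 0.05 (adjusted p 0.455). A second bright Serpini1 probe set gave 0.03 ± 0.08 in sensory cortex (unadjusted p 0.707) and 0.13 ± 0.08 in motor cortex (unadjusted p 0.115). Counted over all members, EAE and healthy arrays did not overlap for 1 of 40 serpins in motor cortex, against 5.68% of all genes. It was Serpinb1a, lower as for 4.19% of all genes, and none was higher, against 1.48%. In sensory cortex the count was 4 of 40, against 6.49%, with Serpina3n, Serping1 and Serpini1 higher (2.45%) and Serpinb1a lower (4.04%).

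Serpinh1 and Serpinf1 do not act as protease inhibitors. Serpinh1, the chaperone that folds procollagen, read between 8.94 and 9.40 with a median of 9.19 in motor EAE arrays, against 9.54, 9.48, 9.53 and 9.38 in healthy mice. The highest EAE array barely passed the lowest healthy array. The differences were -0.30 ± 0.10 in motor and -0.16 ± 0.09 in sensory cortex (adjusted p 0.142 and 0.384), and -0.23 ± 0.08 for both regions (adjusted p 0.11). These values are from the brighter Serpinh1 probe set, of the kind that can pick up near-identical transcripts. A dimmer probe set, not of that kind, gave -0.55 ± 0.13 in motor and -0.38 ± 0.09 in sensory cortex. For both regions the dimmer one gave -0.47 ± 0.09 and passed with a limma adjusted p of 0.0244 over all 45101 probe sets. The probe sets of Serpinh1 therefore had the same sign but fell on different sides of the threshold. Serpinf1, pigment epithelium-derived factor, which supports neurons and restrains vessel growth, had differences of -0.22 ± 0.09 in motor cortex and 0.05 ± 0.09 in sensory cortex (adjusted p 0.289 and 0.803).

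**Figure D3:**
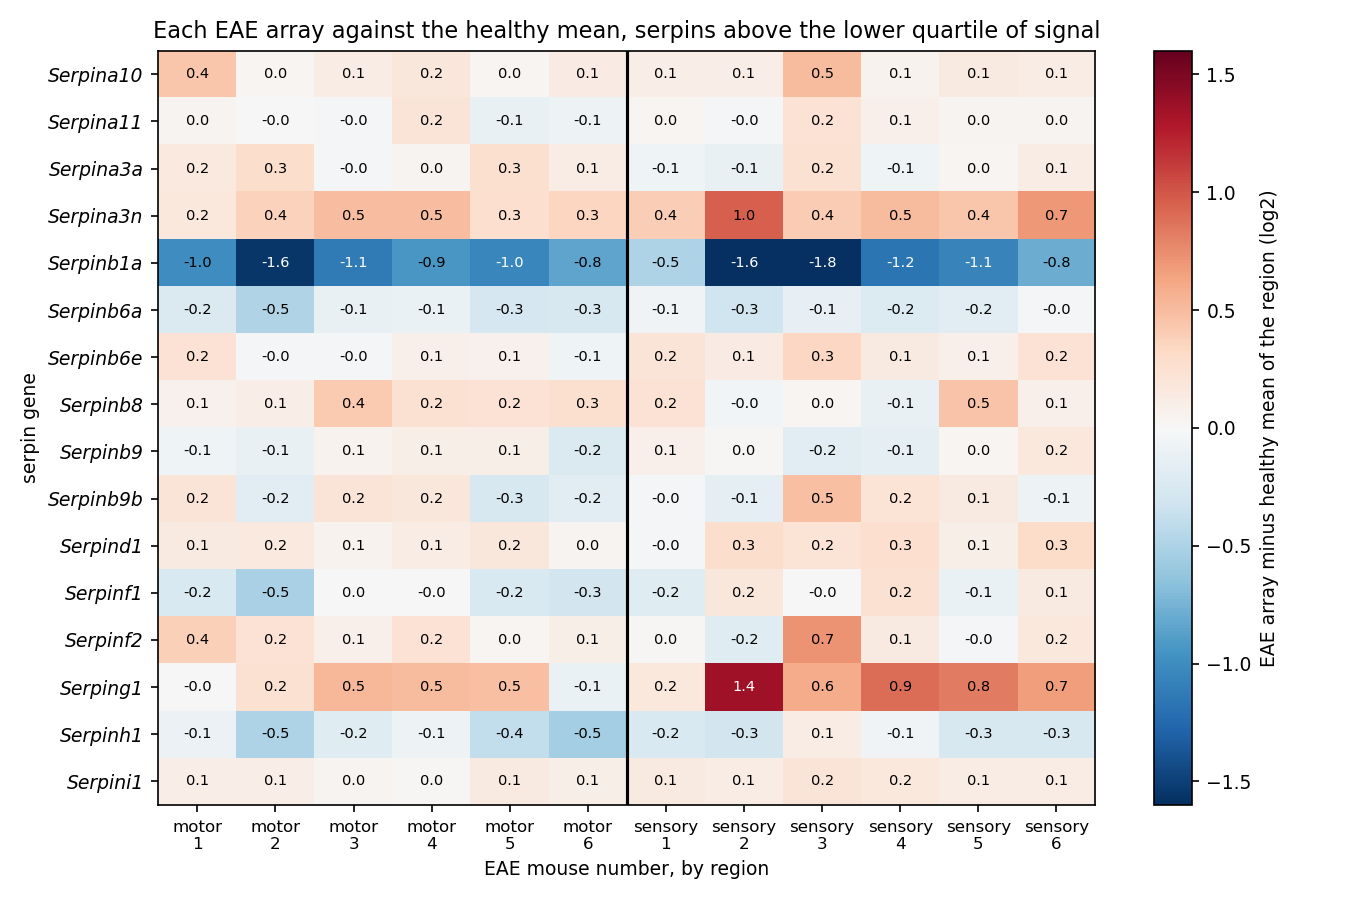
Log2 value of each EAE array minus the healthy mean of its region for the 16 serpins that are not dim, with motor arrays of EAE mice 1 to 6 on the left and sensory arrays on the right. Serpinb1a is below the healthy mean in all 12 EAE arrays, Serpina3n is above it in all 12, and Serping1 reaches 1.35 in the sensory array of EAE mouse 2.

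The regions were then compared within mice, as motor minus sensory cortex. In EAE mice 1 of the 40 serpins was called, against 6.12% of all genes, with 0 higher (3.22%) and 1 lower (2.9%) in motor cortex. In healthy mice 1 of 40 was called, against 3.31%, with 1 higher (1.92%) and 0 lower (1.39%). Serping1 was lower in motor than in sensory cortex of EAE mice, by -0.24, -1.17, -0.11, -0.45, -0.41 and -0.82 in mice 1 to 6, against -0.01, 0.07, -0.15 and -0.13 in healthy mice 1 to 4. All 6 EAE mice had the lower value in motor cortex, and EAE mouse 3 lay within the healthy range. The mean difference was -0.53 ± 0.11 in EAE mice (adjusted p 0.0154) and -0.05 ± 0.14 in healthy mice (adjusted p 0.934). The EAE call held for 9 of 10 omissions of a mouse and was lost without EAE mouse 6 (-0.48, adjusted p 0.0592).

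Motor minus sensory values of Serpina3n were 0.24, -0.13, 0.55, 0.45, 0.28 and 0.11 in EAE mice 1 to 6, against 0.67, 0.43, 0.30 and 0.46 in healthy mice 1 to 4. Of the 10 mice only EAE mouse 2 had the higher value in sensory cortex. The mean was 0.25 ± 0.08 in EAE mice (adjusted p 0.103) and 0.46 ± 0.10 in healthy mice (adjusted p 0.0256), so motor cortex was called higher in healthy mice. The call in healthy mice was lost when any of the 4 healthy mice was left out (adjusted p up to 0.195), while in EAE mice the difference was 0.34 with an adjusted p of 0.0194 without EAE mouse 2. Serpinb1a gave no call between the regions, at -0.10 ± 0.14 in EAE and -0.17 ± 0.17 in healthy mice.

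**Figure D4:**
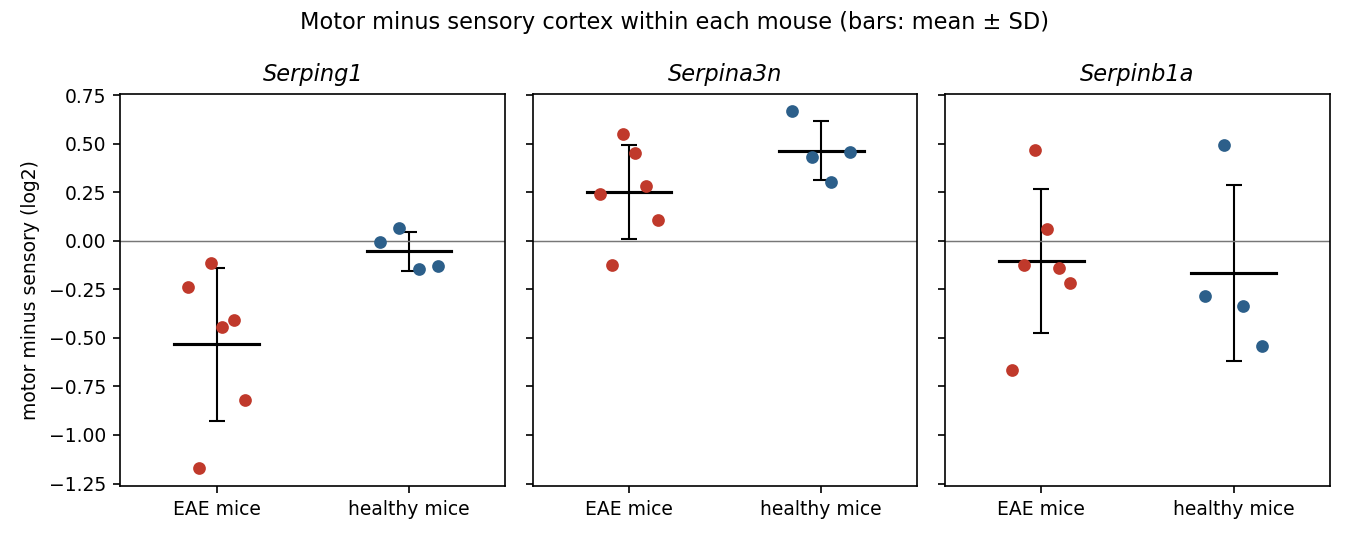
Motor minus sensory log2 value within each mouse for Serping1, Serpina3n and Serpinb1a, with 6 EAE mice (red) left of 4 healthy mice (blue) and bars for the mean ± SD. All 6 EAE mice lie below 0 for Serping1, all 4 healthy mice lie above 0 for Serpina3n, and both groups straddle 0 for Serpinb1a.

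Whether the EAE difference itself differed between motor and sensory cortex was tested on the same values. No serpin and no gene passed in limma: 0 of 40 serpins and 0 of 18194 genes (0%) were called, and 1 serpin and 422 genes had an unadjusted p under 0.05. That serpin was Serping1, whose EAE difference was smaller in motor cortex by -0.48 ± 0.18 (95% interval -0.87 to -0.09, unadjusted p 0.0203, adjusted p 1.00). For Serpina3n the value was -0.21 ± 0.13 with an interval of -0.49 to 0.07, and for Serpinb1a 0.06 ± 0.21 with an interval of -0.41 to 0.53.

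Proteases and partners of the serpins were read from 7 lists, whose counts stand beside the shares of all genes called: 2.23% higher and 5.64% lower for both regions, and 0.901% higher in sensory cortex. Of 10 granule proteases, the targets of Serpinb1a, Serpinb6a and Serpinb9 among them, none was called by limma in either region or for both together, and at an unadjusted p under 0.05 there were 1 in motor cortex, 3 in sensory cortex and 3 for both. At that level 15.9%, 18.5% and 25.9% of all genes passed in motor cortex, in sensory cortex and for both. Of 7 plasminogen activation genes 1 was called higher in sensory cortex: Anxa2, a plasminogen receptor subunit, at 0.44 ± 0.07 (adjusted p 0.0217). None of the 7 was called in motor cortex or for both regions. Of 17 coagulation genes 2 were called higher for both regions, F10, coagulation factor X, at 0.26 ± 0.05, and F13a1, the clot-crosslinking subunit also made by macrophages, at 0.37 ± 0.06. Of the 9 measured complement genes 3 were called higher for both regions and none lower: C2 at 0.32 ± 0.05, Cfb at 0.35 ± 0.06 and C1qb at 0.48 ± 0.13 (adjusted p 0.00627, 0.00696 and 0.0454). The median of the 9 complement genes for both regions was 0.32, beside 0.00 for all genes, and C2 is a substrate of the complex that Serping1 inhibits.

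Among 10 brain serine proteases 4 were called lower and 1 higher for both regions. Klk6, a kallikrein-related protease of oligodendrocytes, stood at -0.59 ± 0.08, Klk8, the neuronal protease neuropsin, at -0.34 ± 0.06 and the prolyl endopeptidase Prep at -0.20 ± 0.04. The others called, named after their values were seen, were Prss12, or neurotrypsin, at -0.30 ± 0.07 and Htra1 at 0.19 ± 0.04. Among 17 inhibitors of other families 2 were called higher for both regions: A2m, a broad plasma protease inhibitor, at 0.64 ± 0.11, and the metalloproteinase inhibitor Timp1 at 0.32 ± 0.06. Among 7 receptors and cofactors of serpins 2 were called lower: the reelin receptor Lrp8 at -0.30 ± 0.06 and vitronectin, Vtn, at -0.20 ± 0.05.

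Marker genes of cell types moved in the same arrays, and in bulk tissue fewer cells of a type and less RNA per cell cannot be told apart. Beside the lower Serpinb1a of EAE mice, 5 of 6 microglial markers were called lower for both regions, against 5.64% of all genes. Among them were P2ry12 at -0.98 ± 0.12 and Gpr34 at -1.14 ± 0.16. The mean of the 6 microglial markers lay between 9.71 and 9.97 in EAE and between 10.34 and 10.49 in healthy motor arrays, and between 9.52 and 10.10 in EAE and between 10.20 and 10.44 in healthy sensory arrays. Of 6 endothelial markers 4 were lower, with Tek at -0.39 ± 0.05, and of the 6 oligodendrocyte markers measured 3 were lower, with Mag at -0.45 ± 0.07. The neutrophil markers, of cells that carry SERPINB1 in humans, went the other way: 5 of the 6 measured were called higher, against 2.23% of all genes, with S100a8 at 1.77 ± 0.21. Their mean lay between 7.63 and 7.95 in EAE and 6.98 and 7.13 in healthy motor arrays, and between 7.43 and 8.57 in EAE and 6.87 and 7.13 in healthy sensory arrays. The part of any of these cell types in the fall of Serpinb1a was not tested.

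Beside the rise of Serpina3n and Serping1, none of the 6 astrocyte markers was called higher for both regions and S100b was called lower (-0.20 ± 0.05). Of 7 monocyte and macrophage markers 4 were called higher for both regions, against 2.23% of all genes. F13a1, already counted with the coagulation genes above, is among them. Gfap, the filament protein of astrocytes, missed the threshold at 0.81 ± 0.23 for both regions, 0.65 ± 0.23 in motor and 0.97 ± 0.24 in sensory cortex (adjusted p 0.0534, 0.176 and 0.0645). The mean of the macrophage markers lay between 7.70 and 8.35 in EAE and 7.36 and 7.52 in healthy sensory arrays, and between 7.61 and 7.84 in EAE and 7.43 and 7.52 in healthy motor arrays. The sensory array of EAE mouse 2, the highest for Serpina3n and Serping1, also had the highest macrophage mean (8.35) and the highest astrocyte mean (12.36) of the 20 arrays. Within EAE mice, where Serping1 was lower in motor cortex, so were 4 of 7 macrophage markers, against 2.9% of all genes called lower there, with Plac8 at -0.50 ± 0.09 and Mrc1 at -0.39 ± 0.08. Lower in motor cortex too were 2 of 6 astrocyte markers, Gfap at -0.72 ± 0.08 and Aqp4 at -0.25 ± 0.05, and 3 of 8 markers of meninges and fibroblasts, with Igfbp2 at -0.68 ± 0.08 and Igf2 at -0.55 ± 0.10. In healthy mice no macrophage, astrocyte or meninges and fibroblast marker was called between regions. Gfap was nevertheless lower in motor cortex there, at -0.41, and 7 of 8 meninges and fibroblast differences were negative. The macrophage markers of healthy mice had a median of 0.05. The part of these markers in the Serping1 difference was not tested. The 4 excitatory neuron markers averaged 12.11 to 12.62 on every array, above array medians of 8.22 to 8.32, and none differed between EAE and healthy mice beyond the threshold. Of 5 inhibitory neuron markers 1 was called lower for both regions, against 5.64% of all genes, and 0 were called higher. Their differences for both regions ran between -0.27 and 0.18.

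Arrays of one group correlated at 0.988 to 0.998 over all probe sets, and their number limits the precision. The sensory array of EAE mouse 3 stood somewhat apart, with a mean correlation of 0.989 to the other sensory EAE arrays, against 0.992 to 0.995 for those. It was the highest of the 10 sensory arrays for 11 of the 24 dim serpins, and the motor array of EAE mouse 1 was the highest of the motor arrays for 12 of 24. Without EAE mouse 3 the calls in sensory cortex held for both Serpinb1a (-1.02, adjusted p 0.0311) and Serpina3n (0.60, adjusted p 0.0381).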

How the data were processed

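Motor and sensory cortex of 10 mice were measured on 20 Affymetrix arrays of 45101 probe sets. The deposited values are log2 expression, made by the authors with RMA and Partek, per the submitters' processing notes; their versions and settings are not given in the sources used here. In RMA, probes are background-corrected, normalised between arrays and summarised per probe set, so small differences at low signal are compressed. Gene symbols came from the annotation of the platform: 34958 had a single symbol, 932 several and 9211 none. The brightest probe set of each of 18194 genes was used, and all 40 serpins matched a RefSeq gene table of GRCm38.p6 by Entrez identifier and symbol. Promoter sequence is from RefSeq on that build.

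Differences were fitted over all 18194 genes by limma 3.58.1, run in R 4.3.3, as two-sided moderated tests with cohort as covariate. A gene counted as called below 0.05 after Benjamini-Hochberg adjustment. Each region was fitted alone; for both regions a mouse's arrays were averaged, and region contrasts used each mouse's motor minus sensory value. Errors are moderated SEs, unless given as SD. The labels' animal numbers pair motor with sensory arrays of a mouse, and the deviations of such arrays from their group means correlated at 0.163 to 0.587, except in EAE mouse 3 at -0.0316. EAE and healthy mice of one number are different animals. The second processing day holds 2 arrays, motor cortex of healthy mouse 4 and sensory cortex of healthy mouse 1. An alternative left them out. Within a single region this is the same fit as leaving out that mouse. Both arrays are of healthy mice, so an effect of the day and the loss of healthy arrays cannot be told apart. No 2 arrays of a group held identical values (smallest root mean square difference 0.145). The fits were tested on simulated data.

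The members and the lists were chosen with earlier results of these data known. Named serpins are those called in any of the 6 comparisons, the member of each clade with the smallest p for both regions, and a fixed set of 16, of which 13 were measured. From the lists, up to 3 called genes of a pathway and up to 2 of a cell type were named, by smallest p; of 158 listed genes in 20 lists 152 were measured. Alternatives covered normalisation, omission of genes below the median level, probe sets, array weights, cohort, processing day, pairing and each mouse left out.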

Additional observations from a re-analysis of the deposited data

Results flagged for a closer look

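Among 56 groups of arrays, the 14 named serpins in each of 4 groups, 2 held an array whose distance to its nearest neighbour took an unusual share of the group's whole range; about 1 group in 20 does so by chance. Serpina1b read 6.671 in the sensory array of EAE mouse 3, against 5.931 to 6.1 in the other sensory EAE arrays, a gap of 0.771 of the range. That array is also the one that correlated least with its group. Serping1 read 8.253 in the motor array of healthy mouse 1, against 8.508 to 8.555 in the other healthy motor arrays, a gap of 0.844 of the range. Without that mouse the Serping1 difference for both regions was 0.45 with an adjusted p of 0.105.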

How the results depend on the processing

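No called serpin difference changed sign under any alternative. Of 1542 values of the 14 named serpins under the alternatives, 1369 kept direction and side of the threshold, 67 lost a call, 32 gained one, and 74 changed sign with no call on either side. Pairing EAE with healthy mice by number is not backed by the labels, and same-numbered mice correlated at 0.0156 to 0.292 in motor and -0.25 to 0.397 in sensory cortex. With that replicate block in place of cohort 5 genes were called in sensory cortex and 919 for both regions, with 0 and 2 serpins. A further alternative ignored that the motor and sensory arrays come from the same mouse. With that pairing dropped, 2 serpins were called between regions in EAE mice and 0 in healthy mice.

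In motor cortex the 410 calls became 905 with array weights, 194 without the second processing day, 9 within cohort 1 and 16 within cohort 2, and 145 to 470 with 1 mouse left out. The 1 serpin call there became 4 with array weights, 0 within cohort 2, 0 with genes below the median level left out, and 1 to 2 with 1 mouse left out. In sensory cortex the 438 calls became 795 with genes below the median left out, 2549 with array weights, 118 without the second day, 0 within cohort 1, 141 within cohort 2 and 260 over every probe set, and 19 to 1009 with 1 mouse left out. The 2 serpin calls became 1, Serpina3n, with genes below the median left out, 5 with array weights, 0 without the second day, within cohort 1 or over every probe set, and 0 to 3 with 1 mouse left out. For both regions the 1431 calls became 2568 with array weights, 6 without the second day, which leaves 2 healthy mice, 0 within cohort 1 and 574 within cohort 2, and 472 to 1813 with 1 mouse left out. The 4 serpin calls became 9 with array weights, 0 without the second day or within cohort 1, and 1 to 6 with 1 mouse left out.

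Between regions in EAE mice the 1113 calls became 62 within cohort 1, 393 within cohort 2 and 649 to 1254 with 1 mouse left out. The 1 serpin call became 3 with quantile normalisation or array weights, 2 with genes below the median left out (Serpina3n at 0.25 and Serpinb9 at -0.24) or over every probe set, 0 within cohort 1 and 0 to 2 with 1 mouse left out. In healthy mice the 603 calls became 907 with quantile normalisation, 1887 with array weights, 72 without the second day, 20 within cohort 1, 56 within cohort 2 and 171 to 809 with 1 mouse left out. The 1 serpin call became 4 with array weights, 0 without the second day or within a cohort, and 0 to 2 with 1 mouse left out. Fewer arrays enter the fits by cohort and day; the other causes were not tested. The difference between regions in the EAE effect gave 0 calls in each alternative. Leaving out genes whose mean lay below 9.26, the median of all gene means, kept 6 of the 40 serpins, so that Serpinb1a, Serping1 and Serpina12 were not in that fit. The serpins it called for both regions were Serpina3n, Serpinb6a and Serpini1 (limma adjusted p 0.0107, 0.0269 and 0.0308). Signal limits what can be said of the 24 dim serpins.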
